A study of Mus musculus with 1479 samples.

Results

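The elastic fibre genes described here are 10 genes chosen by name, Eln, Fbn1, Fbn2, Mfap4, Mfap5, Fbln1, Fbln2, Fbln5, Efemp1 and Emilin1, out of 46517 gene rows in a table of read counts from single mesenchymal cells of the mouse urinary bladder. All 10 were found in the table. They were followed over the 11 cell clusters and the 5 mouse lines that the sample labels give.

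Elastic fibres let a hollow organ such as the bladder stretch while it fills and recoil when it empties. Their core is elastin, secreted as a soluble precursor, gathered by fibulins and cross-linked by lysyl oxidases on a scaffold of fibrillin microfibrils. Fibroblasts and smooth muscle cells are both known to make these proteins, and the fibres turn over very slowly in adult tissue.

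The series holds 1479 cells from the bladders of adult male mice aged 10 to 20 weeks, each sorted into a well and made into its own Smart-seq2 library. Mice of the PdgfrbGFP line gave 54.8% of the cells, Cspg4dsRED 13.7%, PdgfraGFP 9.94% and Acta2GFP 8.72%, each line with a fluorescent reporter driven by the named gene. The remaining 12.8% came from C57BL6 mice, which carried no reporter, and the labels give no treatment. The study sorted cells positive for a PDGF receptor or a reporter and negative for the endothelial protein CD31, used strains backcrossed to C57Bl6/J and at times combined, and added elastase to the dissociation of Acta2GFP tissue, so a line also stands for a reporter, a sort and a digest. Cluster 10 was described by the study as mural cells, that is pericytes and vascular smooth muscle, cluster 5 as sub-epithelial Tnc+ Cd34- fibroblasts and the remainder as fibroblasts. A reporter marks every cell that uses its promoter, so a line is not a pure cell type. The labels name no animal. The p-values below set a difference between classes or clusters against how much it varied from line to line. They assume that the lines were separate mice.

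Total reads per cell ran from 50276 to 1446059 with a median of 214893, and the median by cluster ran from 110330 in cluster 4 to 306896 in cluster 6. The marker genes of each class were checked against its label. Myh11, the smooth muscle myosin heavy chain, lay between 1426 and 2354 reads per 500000 in the 4 lines with cluster 10 cells, and the summed level of 6 fibroblast markers was 855 in cluster 10 against 7786 or more in each other cluster. In cluster 5, Tnc lay between 164.4 and 1192 in the 4 lines and the 9 mural markers summed to 628, above the 79.4 to 311.3 in the other fibroblast clusters, with Acta2 leading. Cluster 4 had the lowest fibroblast marker sum of the fibroblast clusters and only 23 cells. The lists for endothelium, immune cells, urothelium, glia and mesothelium reached at most 68.6, 15.6, 24.6, 7.58 and 13.8 in any cluster. The study had removed cells with clear endothelial or immune signatures and cells lacking both Pdgfra and Pdgfrb. Low values of these lists were thus partly set beforehand.

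A level here is the number of reads a gene has per 500000 endogenous reads. It was averaged first within each line that had at least 3 cells of the class, and the line means were averaged in turn (SD between lines). Across genes they were compared per kilobase of exon. Fbln1, which encodes the calcium-binding glycoprotein fibulin-1 of elastic fibres and basement membranes, had the highest mean over lines in each cluster, with 714 to 1087 reads per 500000 per kilobase in the fibroblast clusters other than 4 and 5. In the Cspg4dsRED line this order did not hold in cluster 4, where Fbln1 was at 22.2 per kilobase and Mfap5 at 166.4, nor in cluster 10, where Fbln1 was at 9.64 and Emilin1 at 34.6. It also failed in cluster 10 of Acta2GFP, with Fbln1 at 22.9 and Mfap4 at 31.7. In cluster 10 of C57BL6, Fbln1 was at 57.5 and Mfap5 at 85.3, and in cluster 6 of PdgfraGFP, Fbln1 was at 785.9 and Mfap4 at 822.8. In the fibroblast clusters other than 4 and 5, the mean over lines of Mfap4, a microfibril-associated glycoprotein that binds elastin, was 167.2 to 562. That of Efemp1, which encodes fibulin-3, was 51.9 to 425 in the same clusters. Fbln2, Fbln5 and Mfap5 lay between 31.3 and 161.3 per kilobase. Eln, Fbn1 and Emilin1 lay between 7.50 and 50.9 per kilobase, below those 3 genes in each of these clusters except for Emilin1 in cluster 11, which was at 41.3 beside Mfap5 at 40.4. The reads of Fbln1 exceeded 0.5 per exon base in 21.6% of cells, those of Mfap4 in 6.42% and those of Efemp1 in 1.56%. If the removal of reads that the study calls doublets took away reads with the same start, the highest levels of these genes would be compressed, which was not tested.

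The members sit on separate stretches of the genome, given here as the gene spans of GENCODE M21 on GRCm38. Eln lies at chr5:134702593-134747323 on the minus strand, Fbn1 at chr2:125300594-125507993 (minus), Mfap4 at chr11:61485431-61488900 (plus), Mfap5 at chr6:122505845-122529290 (plus), Fbln1 at chr15:85205949-85286535 (plus), Fbln2 at chr6:91212455-91272540 (plus), Fbln5 at chr12:101746565-101819055 (minus), Efemp1 at chr11:28853204-28926743 (plus) and Emilin1 at chr5:30913402-30921277 (plus). The strand setting of the counting is not given in the sources used here. On the other strand Fbn1 shares 2442 exon bases with Gm9913 and Mfap4 shares 89 with Mapk7, and Eln also overlaps an exon of Gm30003, so reads there cannot be assigned to one gene.

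Fbn2, the fibrillin of developing tissue, was almost undetected. It had 46 reads in 2 cells of all 1479, 18 reads in a cluster 5 cell of C57BL6 and 28 in a cluster 10 cell of Cspg4dsRED. After thinning each cell to 50000 reads, 0 of 1272 cells of the fibroblast clusters other than 5 had a read, which allows a share of up to 0.236%. Fbn2 did not pass the filter on low counts in the fits the results below rest on, though it did in some of the alternatives, where it was not called, so 9 of the 10 genes were tested.

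**Figure D1:**
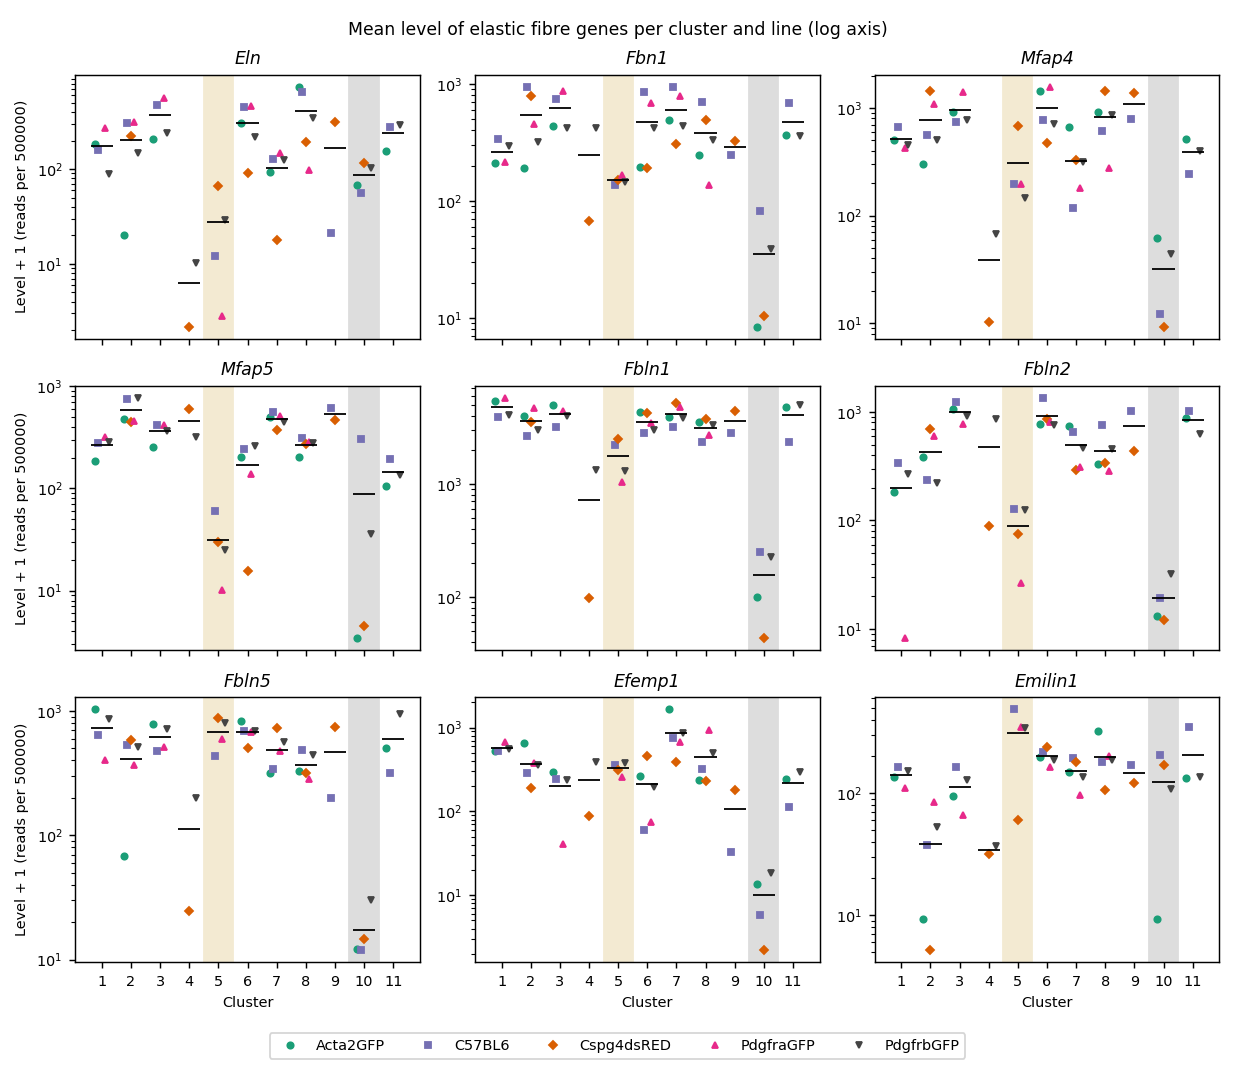
Mean level of 9 elastic fibre genes in each cluster (x axis) in reads per 500000 plus 1 on a log axis. Points are mouse lines with at least 3 cells, black bars the mean over lines, the shaded columns cluster 5 (yellow) and cluster 10 (grey). The bars of Fbn1, Mfap4, Fbln1, Fbln2, Fbln5 and Efemp1 are lowest in cluster 10, that of Eln is lowest in cluster 4 and that of Mfap5 in cluster 5, while Emilin1 is highest in cluster 5.

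The first comparison asked how the members differ between mural cells and fibroblasts. Of the 9 members tested, 7 were lower in cluster 10 and 0 were higher, at an adjusted p under 0.05 and a log2 fold change of at least 2 (edgeR quasi-likelihood test on sums per line in 4 lines, 8.45% of all cells being in cluster 10). Across all 16092 genes tested, 6.2% were called, 2.17% higher and 4.02% lower. The median log2 fold change was -4.80 over the members and -0.93 over all genes. Fibulins, fibrillin-1 and microfibril glycoproteins were low in mural cells, whereas Eln and Emilin1 did not pass the test. With the scaling shifted so that the median of all genes was 0, 7 members were called, Fbln1 stood at -3.87, Eln at -0.74 and Emilin1 at 0.092, while the balance over all genes turned to 3.34% higher and 1.5% lower. The clusters had been made from the same values, so these tests describe whether a difference recurs from line to line and cannot stand as separate evidence that the clusters exist.

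The 4 fibulin genes were called lower in cluster 10. The study had already listed Fbln1, Fbln2 and Loxl1 among the fibroblast markers, against mural cells, that its organs share. That list drew on these bladder cells, so the calls of these genes repeat its finding. The level of Fbln1 was 100 in Acta2GFP, 251.1 in C57BL6, 42.1 in Cspg4dsRED and 226.4 in PdgfrbGFP cells of cluster 10, against 4631, 2948, 3763 and 3505 in the fibroblast clusters of the same lines. The groups did not overlap, and the log2 fold change was -4.80 (SE 0.42, edgeR adjusted p = 2.5e-07). Efemp1 lay between 1.23 in Cspg4dsRED and 17.6 in PdgfrbGFP cells of cluster 10 and between 200.2 and 433 in fibroblasts, a log2 fold change of -5.89 (edgeR, SE 0.73, adjusted p = 2.2e-05). Every line showed this gap.

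Fbln2, a fibulin that binds fibrillin-1 and tropoelastin, lay between 11.1 and 31.1 in cluster 10 and between 378 and 873 in fibroblasts. Its log2 fold change was -5.47 (SE 0.53, edgeR adjusted p = 1.1e-06). Fbln5, which tethers elastin to the cell through integrins, lay between 11.0 and 29.1 against 473 and 651, a log2 fold change of -5.20 (edgeR, SE 0.53, adjusted p = 2.0e-06). For neither gene did the lines overlap between the classes.

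Among the fibulins, RefSeq promoter windows (GRCm38.p6) were at hand for these genes, and 3 that hold no annotated exon of the gene are printed because all 3 genes fell together in cluster 10. Each window runs from 250 to 11 bases before a RefSeq transcript start, 5′ to 3′ on the strand of the gene. Capitals mark the GC box GGGCGG, the CCAAT box CCAAT or the AP-1 motif TGANTCA on either strand, and TATAAA and GTCTAGAC were searched as well.
Efemp1, chr11:28852955-28853194, plus strand: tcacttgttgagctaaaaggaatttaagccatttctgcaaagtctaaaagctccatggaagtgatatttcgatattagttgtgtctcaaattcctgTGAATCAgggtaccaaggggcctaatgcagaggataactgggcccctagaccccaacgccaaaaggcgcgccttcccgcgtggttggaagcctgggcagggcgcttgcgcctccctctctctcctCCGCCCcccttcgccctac
Fbln5, chr12:101819130-101819369, minus strand: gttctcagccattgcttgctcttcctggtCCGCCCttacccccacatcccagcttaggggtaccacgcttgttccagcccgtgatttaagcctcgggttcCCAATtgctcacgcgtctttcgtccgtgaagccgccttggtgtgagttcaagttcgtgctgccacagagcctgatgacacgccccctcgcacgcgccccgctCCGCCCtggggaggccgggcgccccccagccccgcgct
Fbln1, chr15:85205699-85205938, plus strand: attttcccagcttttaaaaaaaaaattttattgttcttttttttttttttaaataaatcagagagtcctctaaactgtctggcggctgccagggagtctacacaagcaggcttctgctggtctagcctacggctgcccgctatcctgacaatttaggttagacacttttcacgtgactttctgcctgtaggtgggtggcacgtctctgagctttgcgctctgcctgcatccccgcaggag
The Efemp1 window held 1 GC box and 1 AP-1 match, the Fbln5 window 2 GC boxes and 1 CCAAT box, and the Fbln1 window 0 matches of the 5 motifs. Of 32851 RefSeq promoter windows of the same 240 bases, 31.3% held a GC box, 10854 a CCAAT box, 12.1% TATAAA, 6.58% the AP-1 motif and 0.167% GTCTAGAC. None of the 5 motifs was found in all 3 windows.

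The microfibril genes were low as well. Fbn1 encodes fibrillin-1, the main subunit of microfibrils in the adult. Its level in cluster 10 was 7.41 in Acta2GFP, 81.8 in C57BL6, 9.52 in Cspg4dsRED and 37.6 in PdgfrbGFP, against 362, 727, 315.4 and 378 in fibroblasts. The classes did not overlap, and the log2 fold change was -4.16 (SE 0.60, edgeR adjusted p = 1.2e-04). Mfap4 lay between 8.24 and 60.9 in cluster 10 and between 544 and 1086 in fibroblasts, a log2 fold change of -5.03 (edgeR, SE 0.61, adjusted p = 1.5e-05).

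Mfap5, which encodes the microfibril glycoprotein MAGP-2, showed the widest spread of the 7. Its level in cluster 10 was 2.40 in Acta2GFP, 3.47 in Cspg4dsRED and 35.2 in PdgfrbGFP, but 305.98 in C57BL6, where the fibroblast level was 402. In C57BL6 cluster 10 had 3 cells, with 906, 12.05 and 0 reads per 500000 of Mfap5. The cell at 906 also had 2532 reads per 500000 of the fibroblast gene Dcn beside 1372 of Myh11. The second cell had 286.1 of Dcn, 473 of Col1a1, 0 of Myh11 and 2042 of Acta2, and the third 21.9 of Dcn and 2905 of Myh11. The mesothelium marker Upk3b averaged 61.4 over the 3 cells, against at most 0.045 in the cluster 10 cells of the other lines. The part of the cell at 906 in the result was not tested, beyond the fit without C57BL6, which called the same number of members. The log2 fold change of Mfap5 was -4.58 (SE 1.03, edgeR adjusted p = 0.0095), and without the line as a block it was -1.92 with an adjusted p of 0.35.

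Eln and Emilin1 stood apart from these 7 genes in that they did not pass the test. Eln encodes tropoelastin, and its level in cluster 10 was 67.7 in Acta2GFP, 55.7 in C57BL6, 114.2 in Cspg4dsRED and 101.6 in PdgfrbGFP, against 227.9, 347, 224.5 and 202.98 in fibroblasts. It was lower in 4 of 4 lines without overlap, with a log2 fold change of -1.68 (edgeR, SE 0.58, adjusted p = 0.082). The adjusted p of Eln fell under 0.05, without reaching the fold, with sums per plate (-1.28, adjusted p = 0.037) and with no filter on low counts (-1.85, 0.044). Within cluster 10 the values were uneven, since 44.6% of the Cspg4dsRED cells and 13.3% of the PdgfrbGFP cells had no Eln read, and the highest cells reached 741 and 549.6.

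Emilin1 encodes a glycoprotein at the interface of elastin and microfibrils. Its level in cluster 10 was 8.35 in Acta2GFP, 206.1 in C57BL6, 170.7 in Cspg4dsRED and 108.1 in PdgfrbGFP, against 140.97, 195.3, 109.7 and 158.1 in fibroblasts. In C57BL6 the 3 cells had 615, 3.01 and 0 reads per 500000, the highest being the cell with high Mfap5 and Dcn. Emilin1 was higher in 2 lines, one of them C57BL6, and lower in 2, and the log2 fold change of -0.84 (edgeR, SE 0.81, adjusted p = 0.64) changed sign when Acta2GFP was left out.

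Shares of cells with at least 10 reads were taken after thinning each cell to 50000 reads, which left out 6 cells. Of the fibroblasts, 98.9% passed for Fbln1, against 29.6% in cluster 10 (99.2% and 46.4% without thinning). For Efemp1 the shares were 70.9% and 0.8% (82.7% and 12.8% without thinning), and for Fbln5 84.7% and 1.6% (89.9% and 20.8%). For Emilin1 they were 49.3% and 32.8% (62.1% and 35.2%). For Eln the share was 46.4% in fibroblasts (62.2% without thinning), and in cluster 10 its exact binomial 95% interval ran from 23.9% to 40.9% (44.8% without thinning). As a measure of background, Myh11, which fibroblasts should lack, had at least 10 reads in 0.393% of the fibroblasts outside cluster 5 and at least 1 read in 17.3%. Median depths were 130406 reads in cluster 10 and 110330 to 306896 in the others.

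**Figure D2:**
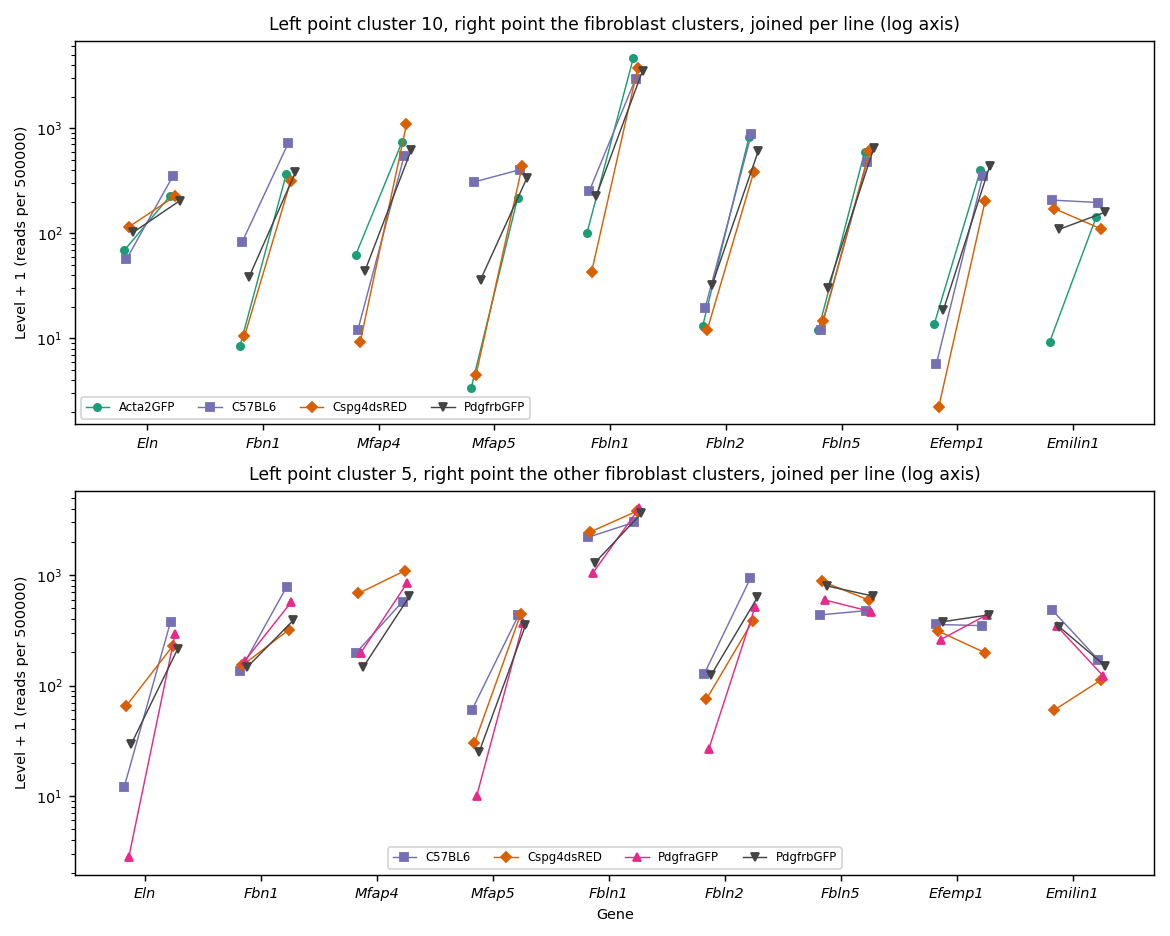
Level of 9 genes in reads per 500000 plus 1 on a log axis, with 1 line of mice per joined pair of points. In the upper panel cluster 10 (left points) is joined to the fibroblast clusters (right points), and all 4 lines rise for each gene but Emilin1. In the lower panel cluster 5 (left) is joined to the other fibroblast clusters (right), with steep rises for Eln, Mfap5 and Fbln2 and 3 of 4 lines falling for Emilin1.

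The other genes of elastic fibre assembly and turnover were read from a list of 45 genes. In the comparison of cluster 10 with fibroblasts, 41 of them were tested, 1 was called higher and 14 were called lower, against 2.17% and 4.02% of all genes, with a median log2 fold change of -2.35 over the list. The gene called higher was Ltbp1, a latent TGF-beta binding protein of microfibrils, with a log2 fold change of 2.16 (edgeR, SE 0.44, adjusted p = 0.0041). Of the 5 lysyl oxidases, which cross-link elastin and collagen, Loxl1 was lower by a log2 fold change of -5.22 and Loxl4 by -6.14, while Lox, Loxl2 and Loxl3 did not pass. Among microfibril genes, Mfap2 had a log2 fold change of -4.41, Ltbp2 of -5.60, Ltbp4 of -3.61, Adamtsl2 of -6.18 and Adamtsl5 of -2.64. Emilin2 (-6.09) and the fibulin relative Hmcn2 (-7.19) were also called lower. The proteoglycans Vcan (-6.59) and Dcn (-3.44) and the proteases Mmp2 (-5.84), Mmp14 (-3.33) and Ctsk (-3.99) completed the calls, and Dcn also serves as a fibroblast marker. Of these 15 calls, 9 were made under each of 12 alternatives, and Loxl4, Ltbp1, Ltbp2, Adamtsl2, Adamtsl5 and Hmcn2 were lost under 1 or more. Ltbp1 was lost without PdgfrbGFP (adjusted p = 0.053) and, at 1.99, with no filter on low counts, and the list had 10 calls without Cspg4dsRED.

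The second comparison asked how sub-epithelial fibroblasts of cluster 5 differ from the other fibroblasts. Of 9 members tested, 3 were called lower and 0 higher, while 0.762% of 16145 genes were called, 0.297% higher and 0.465% lower (edgeR quasi-likelihood test in 4 lines, 5.14% of all cells being in cluster 5). Eln, Mfap5 and Fbln2 fell furthest, Fbn1, Mfap4 and Fbln1 were lower by less than a log2 fold change of 2, and Fbln5, Efemp1 and Emilin1 did not pass the test. The median log2 fold change was -1.79 over the members and -0.77 over all genes. With the median of all genes set to 0, 3 members were called, while Fbn1 (-1.08, edgeR adjusted p = 0.17), Mfap4 (-1.03, 0.066) and Fbln1 (-0.45, 0.35) missed the adjusted p and Fbln5 (0.92, 0.043) passed it. Over all genes 0.65% were then higher and 0.266% lower. Fbn1, Mfap4 and Fbln1 also missed the threshold with DESeq2 (adjusted p = 0.067 for Fbn1 and for Mfap4, 0.32 for Fbln1), Mfap4 (0.13) and Fbln1 (0.064) without the line block, and Fbln1 without Cspg4dsRED (0.13).

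Eln had a level of 1.79 in PdgfraGFP, 28.3 in PdgfrbGFP, 11.0 in C57BL6 and 64.7 in Cspg4dsRED cells of cluster 5, against 293.9, 211.6, 377 and 228.01 in the other fibroblasts. No line overlapped, and the log2 fold change was -4.64 (SE 0.81, edgeR adjusted p = 0.019). The level of Eln in cluster 5 was also below that of cluster 10 in the order of levels, but these neighbours did not differ beyond their spread (edgeR adjusted p = 0.12).

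Mfap5 had a level of 9.06 in PdgfraGFP, 23.9 in PdgfrbGFP, 59.5 in C57BL6 and 29.05 in Cspg4dsRED cells of cluster 5, against 365, 349, 432 and 445. The log2 fold change was -4.05 (SE 0.44, edgeR adjusted p = 9.0e-04), with no overlap. Fbln2 lay between 25.5 and 125.3 in cluster 5 and between 385 and 938 in the other fibroblasts, a log2 fold change of -3.28 (edgeR, SE 0.37, adjusted p = 0.0012). Both genes were low in each of the 4 lines.

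Fbn1 was even across lines in cluster 5, at 166.3 in PdgfraGFP, 145.4 in PdgfrbGFP, 135.3 in C57BL6 and 151.3 in Cspg4dsRED, where the other fibroblasts had 568, 389.9, 779 and 319.04. Its log2 fold change was -1.84 (SE 0.30, edgeR adjusted p = 0.012). Mfap4 had a log2 difference of -1.79 (edgeR, SE 0.23, adjusted p = 0.0026) and Fbln1 one of -1.22 (SE 0.20, adjusted p = 0.012). Mfap4 in the 3 Cspg4dsRED cells of cluster 5 was 681, against 145.3 to 196.5 in the other lines, so the classes overlapped for this gene.

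For Fbln5 and Efemp1 the lines overlapped between cluster 5 and the other fibroblasts. Fbln5 lay between 435 and 875 in cluster 5 against 466 and 643, a log2 fold change of 0.15 (edgeR, SE 0.20, adjusted p = 0.85), and Efemp1 between 259.4 and 378 against 197.8 and 437, a log2 fold change of 0.02 (edgeR, SE 0.27, adjusted p = 0.99). Emilin1 was 484 in C57BL6, 346 in PdgfraGFP and 340.8 in PdgfrbGFP cells of cluster 5 but 59.02 in the 3 Cspg4dsRED cells, against 170.2, 121.4, 149.1 and 110.8 in the other fibroblasts. It was higher in 3 of 4 lines, and the log2 fold change of 0.92 (edgeR, SE 0.53, adjusted p = 0.55) did not pass the test. Without Cspg4dsRED 6 of 9 members passed the adjusted p, Fbln1 and Efemp1 not among them, so Fbln5, Emilin1 or both did. With 4 lines, a p that misses the threshold does not show that these 3 genes were equal.

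Beside these members, 41 genes of the wider list were tested in cluster 5, 1 called higher and 3 lower against 0.297% and 0.465% of all genes, with a median of -0.44. Thsd4, an ADAMTS-like protein that promotes fibrillin-1 microfibril assembly, had a log2 fold change of 5.49 (edgeR, SE 0.60, adjusted p = 9.0e-04). Adamtsl2 (-6.66), Ltbp2 (-5.44) and Adamtsl5 (-2.25) were called lower. Vcan at 1.92 and Mmp2 at 1.01 passed the adjusted p but not the fold. The direction of the list depended on scaling, since with the median of all genes at 0 it had 3 genes called higher, 1 lower and a median of 0.32. Thsd4 and Adamtsl2 were called under each of 12 alternatives. Ltbp2 was lost without C57BL6, PdgfraGFP or PdgfrbGFP and with the median gene at 0, and Adamtsl5 without PdgfraGFP or PdgfrbGFP, without the line block and with the median gene at 0.

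**Figure D3:**
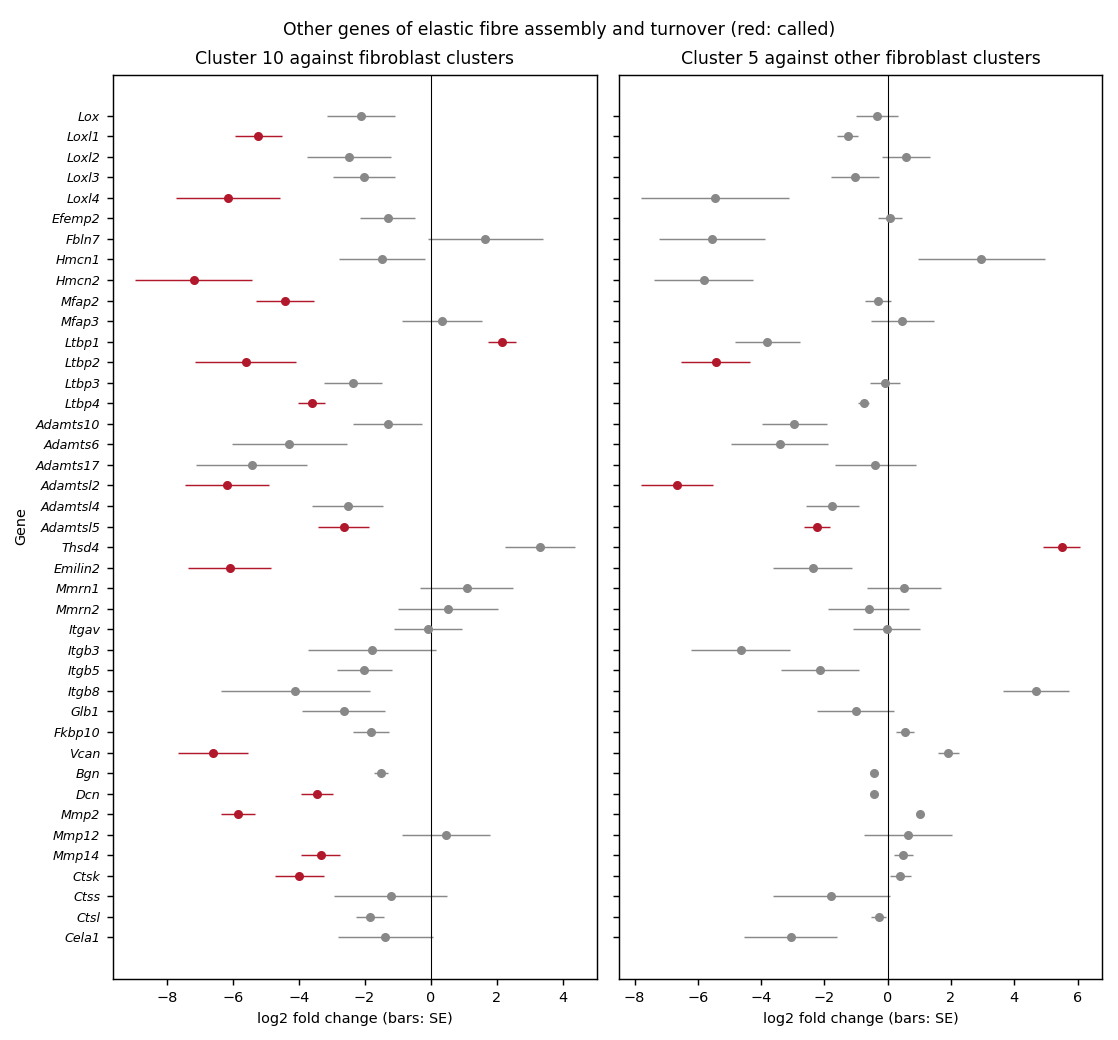
Log2 fold change with its SE (x axis) for the genes of the wider elastic fibre list that passed the filter, in cluster 10 against fibroblasts (left) and cluster 5 against the other fibroblasts (right). Red points were called. Red points lie left of 0 in both panels apart from Ltbp1 on the left and Thsd4 on the right.

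The third comparison covered the 9 fibroblast clusters other than 5. A joint fit of 43 sums per cluster and line called 2 of 9 members as differing among these clusters, Mfap4 (edgeR adjusted p = 0.0092) and Fbln1 (0.040), while 2.7% of 15807 genes were called. Fbln2 and Eln missed the threshold at adjusted p of 0.071 each, Efemp1 at 0.095, Emilin1 at 0.18, Fbln5 at 0.19, Mfap5 at 0.31 and Fbn1 at 0.81. Without C57BL6 the count of members called fell to 0 and without any other single line it was 1, as given with the alternatives. In the wider list of 40 tested genes, Thsd4, Hmcn2 and Itgb3 were called, and Itgb3 was lost without Acta2GFP (adjusted p = 0.060), Cspg4dsRED (0.20) or PdgfrbGFP (0.16), with thinned cells (0.34) and with at least 5 cells per sum (0.076).

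Cluster 4 carried the differences that could be placed in 1 cluster. Tested against the mean of the other 8, each member in each cluster, 3 of 81 pairs were called, all in cluster 4 and all lower, against 0.746% of all pairs of gene and cluster and 0.158% of genes called lower in cluster 4 (0.74% were called higher there). That balance turned with DESeq2, to 2.07% higher and 5.52% lower, and with at least 5 cells per sum, to 0.532% and 1.04%. Its 23 cells were split into 17 of Cspg4dsRED and 4 of PdgfrbGFP in the fit, and its depth was the lowest. The level of Eln was 1.16 in Cspg4dsRED and 9.32 in PdgfrbGFP, a log2 fold change of -6.23 (edgeR, SE 1.38, adjusted p = 0.013). That of Mfap4 was 9.34 and 66.7, a log2 fold change of -4.97 (edgeR, SE 0.90, adjusted p = 0.0011).

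Fbln1 in cluster 4 was 97.1 in Cspg4dsRED and 1326 in PdgfrbGFP, where the other fibroblast clusters but 5 had 2340 to 5706, and its log2 fold change was -3.07 (SE 0.54, edgeR adjusted p = 7.7e-04). Without Cspg4dsRED cluster 4 is 1 sum of 4 cells, assumed to vary like the other groups, and none of these 3 was called, with a log2 fold change of -5.25 for Eln (edgeR adjusted p = 0.28), -4.02 for Mfap4 (0.087) and -1.9995 for Fbln1 (0.10). The 4 PdgfrbGFP cells had 3812, 302.4, 209.5 and 980 reads per 500000 of Fbln1. Fbln5 lay at 23.4 and 198.1 (log2 fold change -2.74, SE 0.73, edgeR adjusted p = 0.059). Mfap5 did not pass the test in cluster 4 (log2 fold change 0.61, SE 0.71, edgeR adjusted p = 0.84), with 597 in Cspg4dsRED and 315.4 in PdgfrbGFP, within the 14.6 to 767 of the other clusters outside 5, and 20 of 21 thinned cells of cluster 4 had at least 10 reads of it (95.2%, exact binomial 95% interval 76.2 to 99.9, counting error only). The fibroblast collagen gene Col1a1 had 770.4 and 1512 reads per 500000 in the Cspg4dsRED and PdgfrbGFP cells of cluster 4, and Dcn had 5073 and 3435. The 9 mural markers summed to 311.3 in cluster 4, of which Cspg4, the gene of the reporter, made 203.8, while Myh11 was at 6.86 and 0.67. Their part in the result was not tested.

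**Figure D4:**
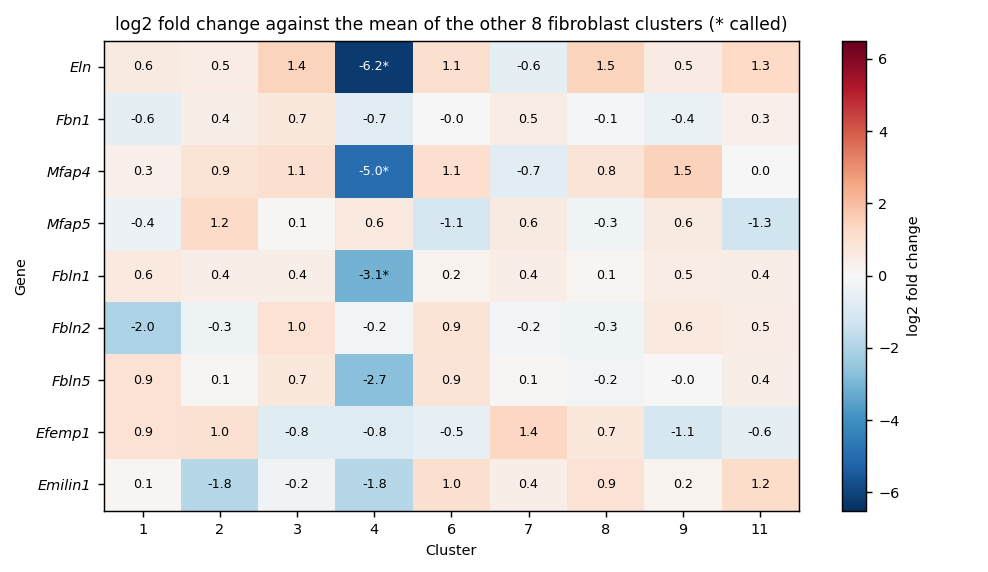
Log2 fold change of each member (rows) in each fibroblast cluster other than 5 (columns) against the mean of the other 8, with the value printed in each cell, blue lower and red higher. Asterisks mark calls, which are Eln, Mfap4 and Fbln1 in cluster 4.

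Among the remaining clusters no member was called in a single cluster, apart from some alternatives. Cluster 7 had 1 member called higher with thinned cells, sums per plate, no filter, no line block, a 5-cell minimum or without Cspg4dsRED. Clusters 1, 2, 6 and 8 also had members called under some alternatives. The mean level of Eln was 408 ± 284.1 (SD, n = 5 lines) in cluster 8 and 370.2 ± 174.2 (SD, n = 4) in cluster 3, and it was 101.99 ± 51.4 (SD, n = 5) in cluster 7. In cluster 8 its level was 744 in Acta2GFP, 659 in C57BL6, 347 in PdgfrbGFP, 194.3 in Cspg4dsRED and 96.3 in PdgfraGFP, so the lines spread over most of the range between clusters. Few cells carried the high values, as the median cell had 130.5 in Acta2GFP and 79.4 in C57BL6 while the highest had 6452 and 5630. After thinning, 45.6% of cluster 8 cells had at least 10 reads of Eln, against 62.4% in cluster 3 (56.6% and 77.6% without thinning), and by sums per line scaled with TMM the order of these clusters turned, with 354.6 in cluster 8 and 391.6 in cluster 3. The mean of Efemp1 over lines was highest in cluster 7, with 1644 in Acta2GFP, 873 in PdgfrbGFP, 743 in C57BL6, 678 in PdgfraGFP and 387 in Cspg4dsRED. In PdgfraGFP the level was higher in cluster 8, at 946, and in Cspg4dsRED in the 3 cells of cluster 6, at 452. Against the mean of the other 8 clusters its log2 fold change was 1.35 (SE 0.38, edgeR adjusted p = 0.051).

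Mfap4 was 321.4 ± 213.2 (SD, n = 5) in cluster 7 and 1079 ± 418 (SD, n = 2) in cluster 9. Fbln2 was 199.1 ± 143.2 (SD, n = 4) in cluster 1, where it was 7.204 in the 5 PdgfraGFP cells and 183.1 to 340.4 in the other lines, with a log2 fold change of -2.01 (edgeR, SE 0.50, adjusted p = 0.11). Its highest level was 993 ± 194.7 (SD, n = 4) in cluster 3. Emilin1 was 37.03 ± 32.9 (SD, n = 5) in cluster 2, a log2 fold change of -1.83 (edgeR, SE 0.61, adjusted p = 0.10). Fbn1 ran from 244.3 in cluster 4 to 617 in cluster 3.

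The 11 clusters were also ordered by fitted level for each member, and neighbours in the order were compared in the joint fit. Of 90 neighbouring pairs, 4 differed at an adjusted p under 0.05. Cluster 10 lay below cluster 5 for Fbn1 (adjusted p = 0.023), Fbln2 (0.023) and Mfap4 (0.0012), and below cluster 9 for Efemp1 (3.2e-04). All other neighbours did not differ beyond their spread. Over all 55 pairs of clusters, Fbln2 differed in 18, Fbln1 and Mfap4 in 17 each, Mfap5 in 13, Fbn1 in 11, Eln and Efemp1 in 10 each, Fbln5 in 9 and Emilin1 in 1, the pair of clusters 2 and 5. By comparison 1.05% of all pairs of gene and cluster pair passed. The pairs that passed all included cluster 4, 5 or 10.

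The clusters at the low end of the fitted order differed between members. For Fbn1, Fbln2, Fbln5, Efemp1 and Fbln1 cluster 10 was lowest. For Eln and Mfap4 cluster 4 was lowest (for Mfap4 the mean level over lines was lower in cluster 10, at 30.7 against 38.04), with cluster 10 next for Mfap4 and cluster 5 next for Eln. Mfap5 was lowest in cluster 5, and Emilin1 in cluster 4.

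In the wider list 4 genes were called in a single cluster. Thsd4, which was also higher in cluster 5 above, was higher in cluster 7 with a log2 fold change of 5.52 (edgeR, SE 0.62, adjusted p = 2.6e-07), where 1.48% of genes were called higher, and Hmcn2 and Fbln7 were higher in cluster 8, by 6.32 and 5.25, where 1.29% were. Itgb3, a subunit of the integrin that binds fibrillin-1 and fibulin-5, was higher in cluster 4 by 9.57. It was not called without Cspg4dsRED (5.24, adjusted p = 0.72) or with thinned cells (2.67, 0.52). Fbln7 was not called without PdgfraGFP (adjusted p = 0.066), without PdgfrbGFP (0.10) or with at least 5 cells per sum (0.072).

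Lines were set side by side without a test, since line, sort and plate largely coincide. Acta2GFP and PdgfrbGFP cells met on 1 plate, and PdgfraGFP and some Cspg4dsRED cells on another, where cluster 8 was the only fibroblast cluster with at least 3 cells of both. The 3 plates of PdgfrbGFP gave the spread within a line, in clusters 3, 6, 7 and 8. Fbln1 lay inside the range of the PdgfrbGFP plates for every other line in each of these clusters. For Fbln1 these plates spread widely, from 2444 to 5530 in cluster 3 and from 2220 to 4999 in cluster 8. Fbn1 in C57BL6 lay above the PdgfrbGFP plates in 4 of 4 clusters, with 749, 854, 939 and 701 against at most 569, 479, 457 and 369.8. Fbn1 in PdgfraGFP lay above them in clusters 3, 6 and 7, with 863, 680 and 789, and below them in cluster 8, with 136.7. Fbln2 in C57BL6 lay above them in 4 of 4 clusters too, with 1222, 1339, 649 and 756 against at most 973, 1064, 535 and 552. C57BL6 and PdgfraGFP cells each came from 1 plate, so the clusters of such a line are not separate repeats. Eln in Cspg4dsRED lay below the PdgfrbGFP plates in 3 of 3 values, of which 1 was 265.1 from 4 cells against 269.4. The share of all genes outside such ranges was not taken.

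On the shared plate, Eln in Acta2GFP cells was 205.6, 303.4, 93.2 and 744 in clusters 3, 6, 7 and 8, against 137.9, 96.1, 109.02 and 510 in PdgfrbGFP cells. The ratio of Acta2GFP to PdgfrbGFP was thus 1.49, 3.16, 0.855 and 1.46. For Fbln1 it was 0.898, 0.847, 0.678 and 0.702, below 1 in each of the 4. Efemp1 had ratios of 1.34, 3.06, 1.97 and 0.934. Cluster 6 held only 6 and 9 of these cells, and the Eln level of 744 in cluster 8 comes from 11 Acta2GFP cells with a median of 130.5 and 1 cell at 6452. Reporter and digest cannot be told apart here.

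**Figure D5:**
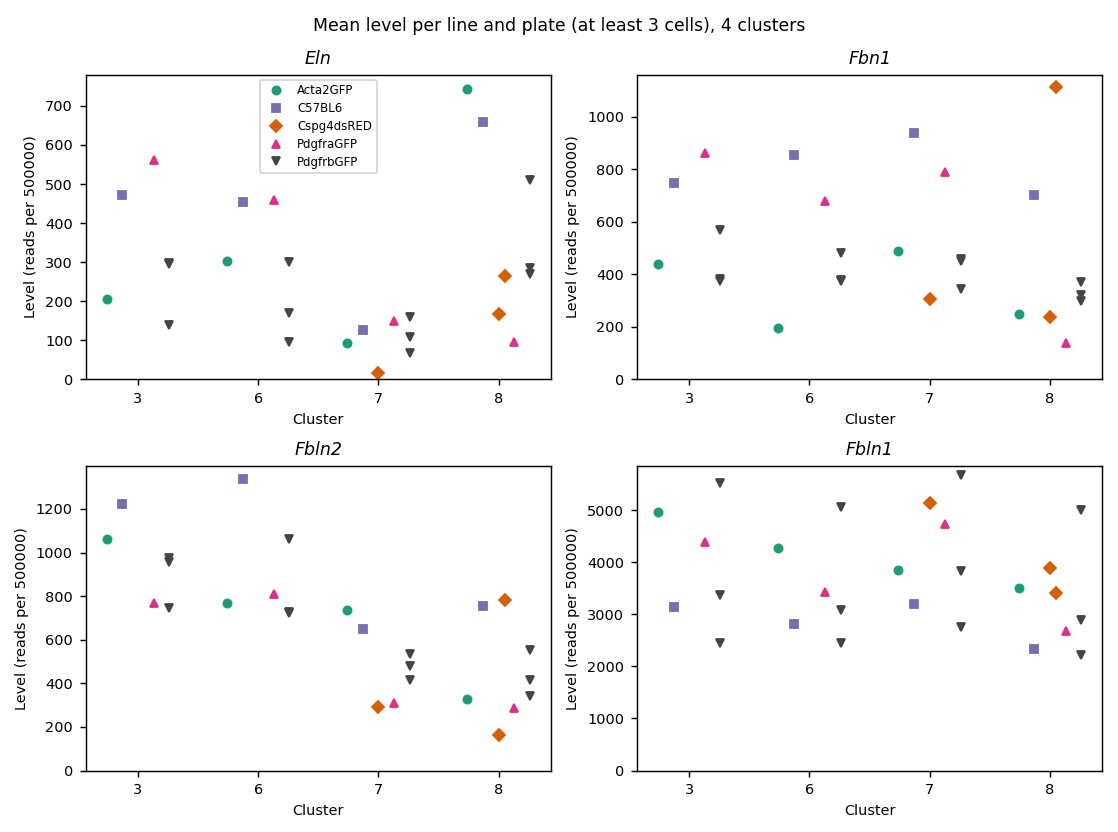
Mean level (y axis, reads per 500000) of Eln, Fbn1, Fbln2 and Fbln1 in clusters 3, 6, 7 and 8 by line, with 1 point per plate. The 3 dark triangles of a cluster are the PdgfrbGFP plates. C57BL6 squares lie above them for Fbn1 and Fbln2, PdgfraGFP points do so for Fbn1 in clusters 3, 6 and 7, and all Fbln1 points lie within the range of the PdgfrbGFP plates of their cluster.

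Members were also compared cell by cell, as a description, in 1272 thinned cells of the fibroblast clusters other than 5. Within lines and clusters the highest Pearson correlation of log2 levels was that of Eln and Mfap4 at 0.317, positive in 21 of 23 groups of at least 10 cells. Mfap5 and Fbln2 had 0.240, Eln and Fbn1 0.232 and Fbn1 and Fbln2 0.212. At the other end, Mfap5 and Fbln1 stood at -0.147, Mfap4 and Efemp1 at -0.134, Fbn1 and Fbln1 at -0.113, Eln and Fbln1 at -0.111 and Eln and Efemp1 at -0.105. Cells of a group share a line and its sort, some of them a plate, and all of these values are weak.

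Over the 43 sums per cluster and line, with the mean of each line removed, the genes most like each member were read from 15807 genes by Pearson correlation of log2(CPM + 1). Stc2 and Mn1 were most like Eln (0.795 and 0.791), and Fstl1 and Htra3 most like Fbn1 (0.854 and 0.841). Col14a1 led for both Fbln1 (0.944, before Pi16 at 0.941) and Mfap4 (0.876, before Gm20488 at 0.858). Tnxb and Dpt were most like Fbln2 (0.914 and 0.836), and Tcf21 and Cdc42ep2 most like Fbln5 (0.898 and 0.891). Plxdc2 and Adh1 were most like Efemp1 (0.864 and 0.841), Sulf1 and Cd34 most like Mfap5 (0.839 and 0.802) and Vcam1 and Erp29 most like Emilin1 (0.729 and 0.709). These sums share lines and plates, and the low level of several members in cluster 10 enters each value.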

How the data were processed

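Per the labels and the study's methods, single bladder cells were made into Smart-seq2 libraries, reads were trimmed, aligned to GRCm38 with TopHat2, freed of what the study calls doublets and counted per gene with featureCounts, and shallow cells were removed. Cells lacking both Pdgfra and Pdgfrb, and cells with clear endothelial or immune signatures, had also been removed by the study. The authors deposited raw counts per gene and cell. The annotation and strand setting of the counting are not given in the sources used here. Symbols came from GENCODE M21, which matched 46005 of 46517 gene IDs, and the 92 spike-in rows were left out of library sizes.

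Counts were summed per mouse line and class (sums of at least 3 cells), scaled by TMM, filtered with filterByExpr and tested by quasi-likelihood in edgeR 4.0.16, blocking on the line, with Benjamini-Hochberg adjustment over all genes tested. A gene was called where the adjusted p was under 0.05 and the log2 fold change reached 2 in size (1 for a single cluster, no minimum for the test among 9 clusters). The line block rests on the labels, since sums of a line share its mice and plates. For shares, cells were thinned to 50000 reads, with exact binomial intervals. Reads are not unique molecules, so intervals and limits cover counting error only.

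Alternatives were median-of-ratios scaling, the median gene set to 0, DESeq2, no low-count filter, sums per plate, no line block, at least 5 cells per sum, thinned cells and leaving out each line. Named genes were all 10 members, the 2 genes most like each, and called genes of a list of 45 elastic fibre genes. The members and lists were chosen with earlier results of these data known.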

Additional observations from a re-analysis of the deposited data

Results flagged for a closer look

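Of 90 groups of 4 or 5 lines examined, 5 had a line set apart from the others by a gap larger than Dixon's 95% critical value, where chance gives about 1 in 20. Mfap4 in cluster 5 was 680.86 reads per 500000 in Cspg4dsRED, where the other lines had 145.3 to 196.5, and the value comes from 3 cells. Mfap5 in cluster 10 was 305.98 in C57BL6, against 2.40 to 35.2 in the other lines, also from 3 cells. Fbln2 in cluster 6 was 1339 in C57BL6, against 749 to 862. Fbln5 in cluster 10 was 29.06 in PdgfrbGFP, against 11.0 to 13.7. The log2 difference of Emilin1 between cluster 5 and the other fibroblasts was -0.897 in Cspg4dsRED and 1.19 to 1.51 in the other 3 lines.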

How the results depend on the processing

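In cluster 10, 7 members were called under each alternative except without the line block, where Mfap5 was lost (-1.92, adjusted p = 0.35) and 6 were called. In cluster 5, 3 members were called under 9 alternatives and 4 with sums per plate, at least 5 cells per sum, or without Cspg4dsRED. These are not separate choices, since the minimum of 5 cells gave the fit without Cspg4dsRED (in cluster 10, that without C57BL6), and sums per plate also dropped the 3 Cspg4dsRED cells of cluster 5. Among the other 9 fibroblast clusters the 2 members called became 1 with median-of-ratios scaling, 4 with no filter, and 5 with sums per plate, with at least 5 cells per sum and with no line block. Leaving out a line gave 0 to 1. The 3 calls in single clusters became 6 with DESeq2, 5 with no filter, 6 with sums per plate, 7 with no line block, 6 with at least 5 cells per sum and 5 with thinned cells, and leaving out a line gave 2 to 4. The 2 without Cspg4dsRED were Efemp1 in clusters 2 (1.40) and 7 (1.63), so none of the 3 calls in cluster 4 was among them. Eln in cluster 4 was lost with sums per plate (-7.63, adjusted p = 0.064), without Cspg4dsRED (-5.25, 0.28) and without PdgfrbGFP (-8.14, 0.13).

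Of all genes tested, 6.2% were called in cluster 10, 18.6% with DESeq2, 15.9% with sums per plate, 10.6% with no line block and 2.88% to 5.79% without a line. In cluster 5, 0.762% were called, 8.68% with DESeq2, 3.0% with sums per plate, 2.43% with no line block, 1.31% with at least 5 cells per sum, 2.26% with thinned cells and 0.559% to 1.31% without a line. Among the other 9 clusters 2.7% were called, 5.25% with DESeq2, 5.43% with sums per plate, 9.13% with no line block, 1.72% with at least 5 cells per sum and 0.165% to 1.56% without a line. In single clusters 0.746% were called, 3.43% with DESeq2, 0.491% with no filter, 3.02% with no line block, 0.347% with at least 5 cells per sum, 0.474% with thinned cells and 0.22% to 0.877% without a line. Changes of sign touched values that had not been called. Emilin1 in cluster 10 turned to 0.092 with the median gene at 0 and to 0.054 without Acta2GFP, the lowest value without a line being -1.40. Fbln5 in cluster 5 turned to -0.041 with thinned cells. Efemp1 in cluster 5 turned to -0.077 with no filter, -0.22 with sums per plate, -0.17 with at least 5 cells per sum and -0.40 with thinned cells, and ran from -0.17 to 0.25 without a line. The causes were not tested. Some sums hold 3 to 5 cells, which limits what the smaller groups can show.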
